A study of Mus musculus with 12 samples.

Results

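The genes described here are the 9 enzymes and cofactors that write, copy or remove DNA methylation in the mouse: the de novo methyltransferases Dnmt3a and Dnmt3b with their cofactor Dnmt3l, the maintenance pair Dnmt1 and Uhrf1, the oxidising enzymes Tet1, Tet2 and Tet3, and the glycosylase Tdg. They were chosen by name as members of 1 biochemical pathway and make up 9 of the 54446 genes in the expression table. Each was listed once, on 1 row.

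Poly(A) RNA was sequenced from E14 cells, a mouse embryonic stem cell (ESC) line, in 4 groups of 3 libraries, in a study of how definitive endoderm emerges and is patterned. SOX17+ cells carried a signal from a reporter of SOX17, an endoderm factor. SOX17+/T+ cells carried this signal together with one from a reporter of T (Brachyury), a factor of the primitive streak and early mesoderm. T+ cells carried the T reporter signal. These 3 populations were differentiated from the ESCs and sorted. The reference, mESC, was the undifferentiated culture, kept with serum and the cytokine LIF over gelatin and irradiated primary mouse embryonic fibroblasts. The labels name neither the duration nor the factors of the differentiation, and they do not say whether mESC went through the sorter. All cells were brought into suspension with TrypLE. A stranded kit was used, and libraries were read as 100 bp pairs; the labels state a minimum depth, but not the depth that each library reached. Levels are TPM, transcript abundances scaled for transcript length and to 1 total per library. The labels do not tell whether the 3 replicates of a group were grown separately, so each p-value reflects only how these libraries vary, which may be technical.

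Methylation of cytosine in CpG dinucleotides is set on new sites by DNMT3A and DNMT3B and restored after replication by DNMT1, which UHRF1 guides to hemimethylated DNA. TET enzymes oxidise methylated cytosine, and TDG cuts out the more oxidised forms so that repair can put back an unmodified base. Around implantation the mouse epiblast passes from low to high methylation, and ESCs in culture hold much of this machinery at high levels. DNMT3L has no catalytic activity of its own and stimulates the de novo enzymes.

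Promoter sequences are shown for the 3 de novo genes, because their transcript levels moved apart most. They come from RefSeq with coordinates in GRCm38.p6, run from 250 bases before the annotated start to 50 bases after it on the plus strand, and carry each CpG in capitals. All 9 genes had at least 1 promoter in the RefSeq table. Dnmt3a has a pair of overlapping upstream windows, the first of which is shown, and an internal start of a shorter transcript, and the expression table gives 1 summed value for all.
Dnmt3a, upstream start, chr12:3806730-3807029: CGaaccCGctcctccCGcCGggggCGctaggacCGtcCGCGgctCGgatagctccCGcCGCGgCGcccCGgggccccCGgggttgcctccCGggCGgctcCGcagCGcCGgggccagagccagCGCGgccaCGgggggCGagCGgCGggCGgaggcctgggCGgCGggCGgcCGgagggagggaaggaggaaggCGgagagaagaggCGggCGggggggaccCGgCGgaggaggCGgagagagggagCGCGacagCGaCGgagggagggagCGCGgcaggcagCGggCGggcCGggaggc
Dnmt3a, internal start, chr12:3891494-3891793: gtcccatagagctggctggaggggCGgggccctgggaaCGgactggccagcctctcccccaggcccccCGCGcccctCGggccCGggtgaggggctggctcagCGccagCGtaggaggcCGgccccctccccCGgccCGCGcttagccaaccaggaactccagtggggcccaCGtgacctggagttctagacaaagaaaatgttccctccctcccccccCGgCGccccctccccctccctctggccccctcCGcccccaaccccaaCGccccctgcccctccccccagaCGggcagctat
Dnmt3b, chr2:153649199-153649498: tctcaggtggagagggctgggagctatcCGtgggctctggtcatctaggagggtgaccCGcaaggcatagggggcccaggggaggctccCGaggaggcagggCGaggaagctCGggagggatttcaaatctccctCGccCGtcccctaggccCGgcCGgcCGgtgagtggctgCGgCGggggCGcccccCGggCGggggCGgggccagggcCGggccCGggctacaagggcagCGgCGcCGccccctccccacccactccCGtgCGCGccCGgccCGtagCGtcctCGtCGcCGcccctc
Dnmt3l, chr10:78042037-78042336: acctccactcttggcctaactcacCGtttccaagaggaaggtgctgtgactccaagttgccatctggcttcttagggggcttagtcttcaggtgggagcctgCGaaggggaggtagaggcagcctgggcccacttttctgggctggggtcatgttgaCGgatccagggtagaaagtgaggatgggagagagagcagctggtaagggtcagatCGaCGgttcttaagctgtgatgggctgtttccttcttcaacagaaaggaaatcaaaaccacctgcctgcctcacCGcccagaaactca

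The upstream Dnmt3a promoter shown held 46 CpG dinucleotides, a number that 1.65% of the 32851 promoters of the same 300-base length reached, against a median of 7. The internal Dnmt3a promoter held 18, a number reached by 29.7% of promoters. Dnmt3b held 30 (reached by 11.7%) and the first promoter of Dnmt3l held 6 (reached by 56.4%). Dnmt3l windows 2 and 3, which are not shown, held 4 and 3. Which Dnmt3l start was used in these cells was not tested. Of the 4 motifs searched on both strands, the E2F sites TTTCCCGC and TTTGGCGC, the octamer ATGCAAAT and the E-box CACGTG, the 4 windows shown held only the E-box, in the internal Dnmt3a window. That E-box was in 7.15% of all promoters. TTTGGCGC, found in 0.514% of promoters, was in 1 of the 3 Dnmt1 windows, and the E-box was also in the Tdg window and in a later Dnmt3l window. TTTCCCGC and ATGCAAAT, in 1.07% and 1.74% of all promoters, were in no window of a member. The window richest in CpG among the 9 genes belonged to Tet2, with 57, a number that 0.152% of promoters reached. These are letters in a window, not tested sites.

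The sums of endoderm and streak markers followed the labels, although not every single marker did. The endoderm list holds Sox17 and the streak list holds T, the genes of the sorting reporters. Part of this match was therefore fixed by the sort. Sox17 averaged 230 TPM in SOX17+, and T averaged 127 TPM in T+. The 7 definitive endoderm markers summed to 1306 to 1400 TPM in SOX17+, 951 to 964 in SOX17+/T+, 320 to 391 in T+ and 105 to 113 in mESC. The 6 streak and mesoderm markers summed to 20.2 to 34.9, 127 to 181, 330 to 403 and 8.77 to 10.2 TPM in the same order. Naive pluripotency markers, 7 genes, summed to 64.9 to 71.7 TPM in SOX17+, 45.6 to 50.2 in SOX17+/T+, 45.2 to 46.6 in T+ and 1613 to 1649 in mESC. Most of the sum in the sorted populations was Tbx3, named after its values were seen. It averaged 57.9 TPM in SOX17+, 36.2 in SOX17+/T+, 32.6 in T+ and 77.7 in mESC. Zfp42 of the same list averaged 0.847, 1.51, 2.28 and 515 TPM. Markers of other cells were also detected. The 6 primitive blood markers summed to 92.0 to 226 TPM in SOX17+, 13.0 to 20.5 in SOX17+/T+, 2.86 to 4.22 in T+ and 6.86 to 8.17 in mESC. The 8 feeder fibroblast markers summed to 731 to 830, 922 to 1031, 858 to 1017 and 3060 to 3809 TPM, and all 8 were above 1 TPM in mESC. Fn1, a matrix gene that early mesoderm and endoderm also use, made up most of that sum in the sorted populations, S100a4 was listed at 0 in every SOX17+ and SOX17+/T+ library, and Acta2, a smooth muscle actin, averaged 1006 ± 127 TPM in mESC (SD, n = 3). The 6 general pluripotency markers summed to 128 to 152, 141 to 158, 186 to 213 and 4933 to 5091 TPM, the 5 primed epiblast markers to 19.2 to 32.2, 34.6 to 60.4, 33.5 to 45.5 and 55.3 to 57.4, the 6 primordial germ cell markers to 21.1 to 25.7, 20.7 to 24.7, 19.8 to 21.7 and 80.2 to 83.8, and the 6 endothelial markers to 67.4 to 78.3, 39.8 to 41.8, 32.0 to 36.4 and 36.1 to 36.6, in SOX17+, SOX17+/T+, T+ and mESC. Single genes also held most of some of these sums. Sall4, of the general pluripotency list and named after its values were seen, averaged 126 TPM in SOX17+ and 107 in SOX17+/T+. Prdm1, of the germ cell list, averaged 18.8 TPM in SOX17+. In bulk RNA, fewer cells of a type and less RNA per cell cannot be told apart.

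Differences are given on the log2(TPM + 1) scale ± the standard error of a limma fit to 16097 genes, and a gene was called where the Benjamini-Hochberg adjusted p was under 0.05. This scale understates changes in genes near 1 TPM. All comparisons with mESC share the same 3 mESC libraries. The median of all tested genes lay at -0.18 in SOX17+, -0.19 in SOX17+/T+ and -0.17 in T+ relative to mESC, so small falls from mESC are given beside that shift. Among called genes, 41.5%, 40.9% and 41.0% were higher than in mESC in SOX17+, SOX17+/T+ and T+, against 48.2%, 48.1% and 47.6% with median-of-ratios scaling and 52.4%, 53.2% and 53.4% with quantile normalization. Of the 9 genes, 8 were at 1 TPM or more in all 12 libraries. Dnmt3l passed the filter on low values only through the 3 mESC libraries, so it had to differ from them.

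Dnmt3a and Dnmt3b, which share the task of methylating new sites, moved in opposite directions across the sorted populations. Dnmt3b was highest in SOX17+ and lowest in T+, whereas Dnmt3a was lowest in SOX17+ and highest in T+, with SOX17+/T+ in between for both. Dnmt3b rose 1.22 ± 0.08 in SOX17+ over T+ on the log2 scale, a 2.32-fold difference (adjusted p = 1.1e-07), while Dnmt3a fell by 1.71 ± 0.24, a 3.27-fold difference (adjusted p = 0.000176).

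Dnmt3a (ENSMUSG00000020661.15, GRCm38 chr12:3806007-3914443, plus strand) was at 19.1, 14.7 and 13.5 TPM in SOX17+, at 35.2, 27.3 and 41.8 in SOX17+/T+, at 55.8, 50.9 and 53.4 in T+, and at 92.1, 48.3 and 87.1 in mESC. The 3 sorted populations did not overlap, and mESC replicate 2 lay below every T+ library while the other 2 mESC libraries lay far above. Relative to mESC, Dnmt3a fell by 2.16 ± 0.24 in SOX17+ (adjusted p = 1.1e-05), and it fell by 1.07 ± 0.24 in SOX17+/T+ (adjusted p = 0.00194). In T+ the difference of -0.45 ± 0.24 from mESC was not called (adjusted p = 0.110). Without mESC replicate 2, the T+ difference was -0.74 and called (adjusted p = 0.00181). Among 8812 genes with a mean of at least 10 TPM in mESC, Dnmt3a was 1 of 3 that in replicate 2 lay under 0.6 of the lower of the other 2 libraries, against 4 such genes for replicate 1 and 11 for replicate 3. The feeder marker sum of mESC replicate 2, 3809 TPM, stood beside 3060 and 3676 TPM in replicates 1 and 3, and its part in the low Dnmt3a value was not tested.

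Between sorted populations, Dnmt3a was lower in SOX17+ than in SOX17+/T+ by a log2 difference of -1.09 ± 0.24 (adjusted p = 0.00572). The difference of -0.62 ± 0.24 between SOX17+/T+ and T+ was not called (adjusted p = 0.0828), although the libraries did not overlap. For these groups the replicate numbers were taken as paired, on correlations alone. With a replicate block, fitted to all 12 libraries, the same difference was called (adjusted p = 0.0359). It was also called in a fit of these 2 groups alone (adjusted p = 0.0156) and without mESC replicate 2 (adjusted p = 0.0107).

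Dnmt3b (ENSMUSG00000027478.15, GRCm38 chr2:153649450-153687730, plus strand) was at 169.9, 139 and 166 TPM in SOX17+, at 125, 99.9 and 120 in SOX17+/T+, at 70.0, 66.0 and 66.0 in T+, and at 158, 152 and 158 in mESC. SOX17+ and mESC overlapped, and both other populations lay below them without overlap. Relative to mESC, Dnmt3b fell by 0.45 ± 0.08 in SOX17+/T+ (adjusted p = 0.000293), and it fell by 1.20 ± 0.08 in T+ (adjusted p = 2.7e-08); the smaller fall was not called with quantile normalization (-0.11, adjusted p = 0.213). In SOX17+ the difference of 0.02 ± 0.08 from mESC was not called (adjusted p = 0.849), but quantile normalization (0.29, adjusted p = 0.00436) and median-of-ratios scaling (0.18, adjusted p = 0.0280) called it higher. Dnmt3b was higher in SOX17+ than in SOX17+/T+ by 0.46 ± 0.08 (adjusted p = 0.000936) and higher in SOX17+/T+ than in T+ by 0.75 ± 0.08 (adjusted p = 3.1e-05).

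Dnmt3c, a rodent copy of Dnmt3b known from male germ cells, shares 11.3% of its 100-base windows with Dnmt3b, and 4.47% of Dnmt3b windows are shared with it. Reads from these windows could have been split between the genes. Dnmt3c was listed at 5.19 ± 0.290 TPM in SOX17+, 3.73 ± 0.517 in SOX17+/T+, 2.05 ± 0.147 in T+ and 4.46 ± 0.417 in mESC (SD, n = 3), which is the same order of sorted populations as for Dnmt3b at a far lower level. Whether these are Dnmt3c transcripts or Dnmt3b reads was not tested.

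The sorted populations did not overlap in the balance of the de novo pair. Dnmt3b made up 90.9% ± 1.36 of the summed Dnmt3a and Dnmt3b TPM in SOX17+, 76.9% ± 2.42 in SOX17+/T+, 55.8% ± 0.583 in T+ and 67.8% ± 6.95 in mESC (SD, n = 3). The lowest SOX17+ library was at 89.9%, the SOX17+/T+ libraries ran from 74.1% to 78.5%, and the highest T+ library was at 56.4%. The ratio of Dnmt3b to Dnmt3a was 10.2 ± 1.82 in SOX17+, 3.35 ± 0.431 in SOX17+/T+, 1.26 ± 0.030 in T+ and 2.22 ± 0.792 in mESC. These ratios use the TPM values as deposited. The summed level was 174 ± 18.4, 149 ± 19.2, 121 ± 4.57 and 232 ± 27.7 TPM in SOX17+, SOX17+/T+, T+ and mESC. The endoderm, blood and endothelial marker sums ran in the same order as the Dnmt3b share among the means of the sorted populations, and the streak marker sum in the opposite order. Single markers did not all follow, such as Cxcr4 and Eomes, named after their values were seen: Cxcr4, of the endoderm list, averaged 37.2 TPM in SOX17+, 53.4 in SOX17+/T+ and 65.1 in T+, and Eomes, of the streak list, 10.9, 13.1 and 5.43 TPM. The part of these cell types in the result was not tested.

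**Figure D1:**
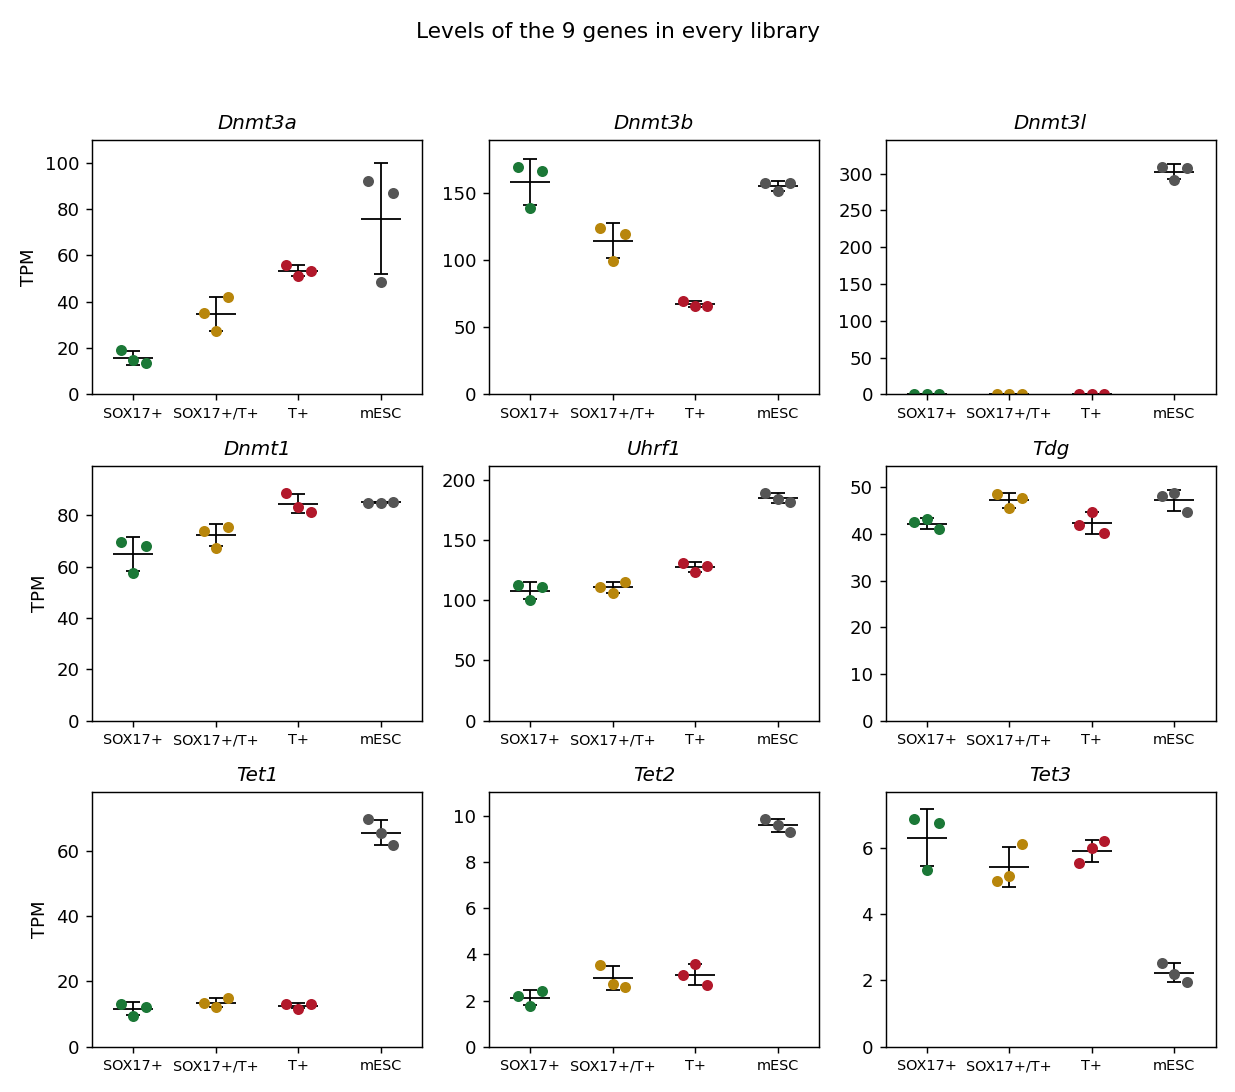
TPM (vertical axes, linear, starting at 0) of the 9 genes in each of the 12 libraries, grouped as SOX17+, SOX17+/T+, T+ and mESC; points are libraries, and lines with bars are the mean ± SD of 3 libraries. Dnmt3a climbs from left to right among the sorted populations while Dnmt3b descends, Dnmt3l is near 0 outside mESC, and Tet3 is the gene whose sorted libraries all lie above mESC.

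**Figure D2:**
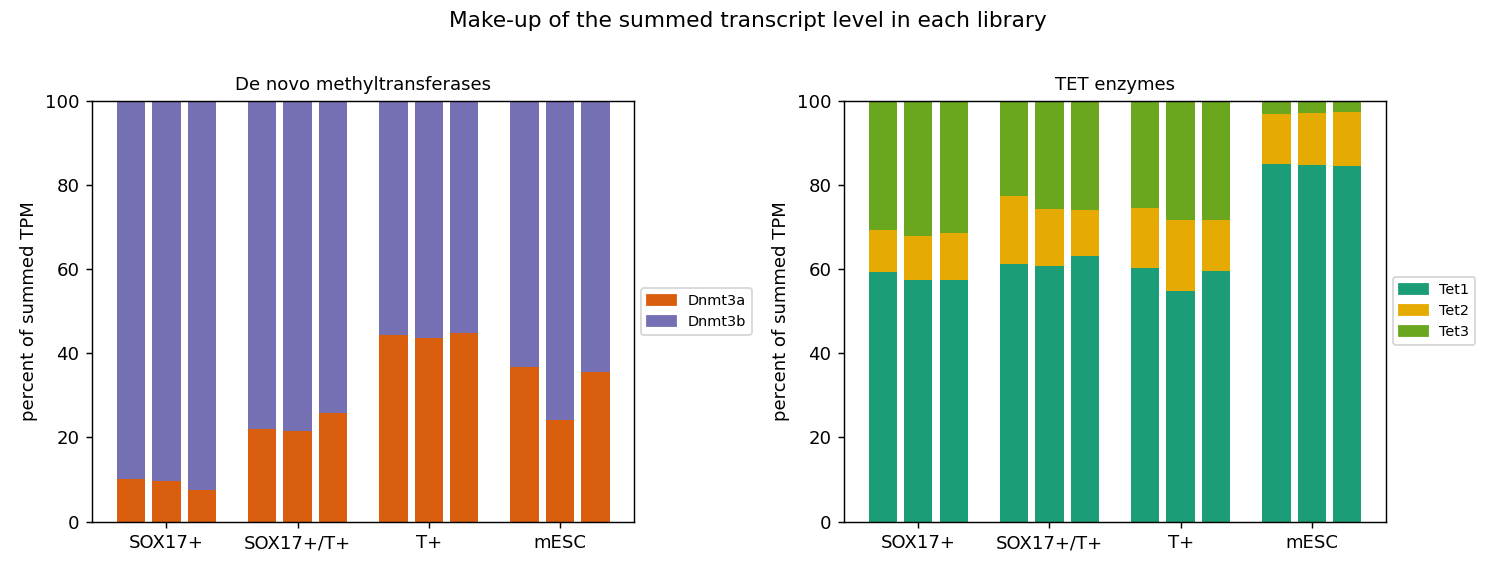
Left, percent of the summed Dnmt3a and Dnmt3b TPM held by each gene, and right, percent of the summed Tet1, Tet2 and Tet3 TPM held by each gene, 1 bar per library with replicates 1 to 3 side by side. Dnmt3b fills over 89% of every SOX17+ bar and Tet3 under 4% of every mESC bar.

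Dnmt3l (ENSMUSG00000000730.13, GRCm38 chr10:78041947-78063622, plus strand) had the highest level of the 9 genes in mESC and was under 1 TPM in every sorted library. It was listed at 0.266, 0.145 and 0.262 TPM in SOX17+, at 0, 0.155 and 0 in SOX17+/T+, at 0.255, 0.314 and 0.526 in T+, and at 309, 292 and 308 in mESC. No sorted library reached 1 TPM, and the sorted populations lay close together. The log2 difference from mESC was -7.96 ± 0.09 in SOX17+, -8.18 ± 0.09 in SOX17+/T+ and -7.80 ± 0.09 in T+. Its size depended on the pseudocount: in SOX17+ it was -9.89 with 0.1 and -5.88 with 5. As Dnmt3l passed the filter through mESC alone, some fall from mESC was fixed in advance. The adjusted p-values against mESC are therefore left out. Dnmt3l was called lower in SOX17+/T+ than in T+ (-0.37 ± 0.09, adjusted p = 0.00725), a comparison between values under 1 TPM that was not called with a pseudocount of 5 (adjusted p = 0.125). An exact 0 in this table can be a failed estimate. Aire, a gene on the other strand that overlaps Dnmt3l, averaged 8.01 TPM in mESC and at most 0.052 TPM in a sorted population. No source used here says whether counting used the strand.

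The maintenance pair kept high levels in all 4 groups, with falls that were small beside those of Dnmt3l. Uhrf1 fell in all 3 sorted populations relative to mESC, and this call held under every scaling tried. Dnmt1 was lower in SOX17+ than in T+. Its differences from mESC depended on the scaling.

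Dnmt1 (ENSMUSG00000004099.16, GRCm38 chr9:20907209-20959888, minus strand) was at 69.7, 57.4 and 68.0 TPM in SOX17+, at 74.1, 67.4 and 75.6 in SOX17+/T+, at 88.7, 83.5 and 81.5 in T+, and at 85.0, 84.9 and 85.4 in mESC. SOX17+ overlapped with SOX17+/T+ and T+ overlapped with mESC. Dnmt1 was lower in SOX17+ than in T+ by a log2 difference of -0.38 ± 0.07 (adjusted p = 0.000322) and lower in SOX17+/T+ than in T+ by -0.22 ± 0.07 (adjusted p = 0.0234). The call against T+ in SOX17+/T+ was lost without SOX17+/T+ replicate 2 (-0.17), without T+ replicate 1 (-0.19, adjusted p = 0.0918) and with no filter (adjusted p = 0.0717). The difference of -0.16 ± 0.07 between SOX17+ and SOX17+/T+ was not called (adjusted p = 0.0870), but quantile normalization (adjusted p = 0.0135) and median-of-ratios scaling (adjusted p = 0.0325) called it, as did the fits without SOX17+ replicate 1 (adjusted p = 0.0386) and without SOX17+/T+ replicate 2 (adjusted p = 0.0415). Against mESC the difference was -0.39 ± 0.07 in SOX17+ (adjusted p = 0.000105) and -0.23 ± 0.07 in SOX17+/T+ (adjusted p = 0.00534), beside all-gene medians of -0.18 and -0.19. Quantile normalization gave -0.09 in SOX17+ (adjusted p = 0.157) and turned the direction in SOX17+/T+ (0.11, adjusted p = 0.0801), where median-of-ratios scaling also lost the call (-0.06, adjusted p = 0.319). In T+ the difference of -0.01 ± 0.07 was not called (adjusted p = 0.897), and it was called higher with quantile normalization (0.33, adjusted p = 8.8e-05) and with median-of-ratios scaling (0.14, adjusted p = 0.0312).

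Uhrf1 (ENSMUSG00000001228.14, GRCm38 chr17:56303321-56323486, plus strand) was at 112, 100.2 and 111 TPM in SOX17+, at 111, 106 and 115 in SOX17+/T+, at 131, 123 and 128 in T+, and at 189, 184 and 181 in mESC. Every mESC library lay above every sorted library, and T+ lay above the other 2 sorted populations, which overlapped. Relative to mESC, Uhrf1 fell by 0.77 ± 0.05 in SOX17+ (adjusted p = 2.5e-09), fell by 0.74 ± 0.05 in SOX17+/T+ (adjusted p = 4.1e-09) and fell by 0.53 ± 0.05 in T+ (adjusted p = 1.3e-07). It was lower in SOX17+ than in T+ (-0.24 ± 0.05, adjusted p = 0.000671) and lower in SOX17+/T+ than in T+ (-0.21 ± 0.05, adjusted p = 0.00495). The ratio of Uhrf1 to Dnmt1 was 1.66 ± 0.072 in SOX17+, 1.53 ± 0.040 in SOX17+/T+, 1.51 ± 0.053 in T+ and 2.17 ± 0.050 in mESC (SD, n = 3), so each mESC library lay above each sorted library.

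Of the enzymes that act on methylated cytosine, Tet1 and Tet2 fell and Tet3 rose in all 3 sorted populations relative to mESC. Each of these calls held under all 20 alternatives tried. Between sorted populations Tet1 and Tet3 were not called, and Tet2 was lower in SOX17+.

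Tet1 (ENSMUSG00000047146.17, GRCm38 chr10:62804570-62908996, minus strand), the main TET enzyme of ESCs, was at 13.2, 9.52 and 12.3 TPM in SOX17+, at 13.4, 12.2 and 14.9 in SOX17+/T+, at 13.1, 11.6 and 13.0 in T+, and at 69.5, 65.2 and 61.7 in mESC. The sorted populations overlapped each other, and all lay under the lowest mESC library. Relative to mESC, Tet1 fell by 2.40 ± 0.10 in SOX17+ (adjusted p = 8.0e-11), fell by 2.20 ± 0.10 in SOX17+/T+ (adjusted p = 2.0e-10) and fell by 2.29 ± 0.10 in T+ (adjusted p = 1.3e-10).

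Tet2 (ENSMUSG00000040943.12, GRCm38 chr3:133463679-133545139, minus strand) was at 2.22, 1.76 and 2.40 TPM in SOX17+, at 3.56, 2.74 and 2.60 in SOX17+/T+, at 3.10, 3.57 and 2.67 in T+, and at 9.83, 9.59 and 9.30 in mESC. SOX17+ lay below the other sorted populations, which overlapped each other. Relative to mESC, Tet2 fell by 1.76 ± 0.11 in SOX17+ (adjusted p = 3.9e-09), fell by 1.42 ± 0.11 in SOX17+/T+ (adjusted p = 4.0e-08) and fell by 1.37 ± 0.11 in T+ (adjusted p = 6.0e-08). It was lower in SOX17+ than in T+ (-0.40 ± 0.11, adjusted p = 0.00810) and than in SOX17+/T+ (-0.34 ± 0.11, adjusted p = 0.0277). The call against SOX17+/T+ was lost without SOX17+ replicate 2 (adjusted p = 0.111), without SOX17+/T+ replicate 1 (adjusted p = 0.121), with no filter (adjusted p = 0.0684) and with only the groups compared (adjusted p = 0.0729).

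Tet3 (ENSMUSG00000034832.15, GRCm38 chr6:83362373-83459084, minus strand), known for oxidation of the paternal genome in the zygote, was at 6.85, 5.31 and 6.74 TPM in SOX17+, at 4.98, 5.15 and 6.11 in SOX17+/T+, at 5.53, 5.99 and 6.19 in T+, and at 2.52, 2.20 and 1.97 in mESC. The sorted populations overlapped and all lay above mESC. Tet3 rose relative to mESC by 1.17 ± 0.10 in SOX17+ (adjusted p = 1.3e-07), by 0.99 ± 0.10 in SOX17+/T+ (adjusted p = 7.9e-07) and by 1.10 ± 0.10 in T+ (adjusted p = 2.7e-07). The difference of 0.18 ± 0.10 between SOX17+ and SOX17+/T+ was not called (adjusted p = 0.186), and it was without SOX17+ replicate 2 (adjusted p = 0.0418).

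Tet3 made up 31.4% ± 0.635 of the summed TET transcript level in SOX17+, 24.8% ± 1.81 in SOX17+/T+, 27.3% ± 1.68 in T+ and 2.88% ± 0.194 in mESC (SD, n = 3). Tet1 held 58.0% ± 1.10 in SOX17+, 61.6% ± 1.24 in SOX17+/T+, 58.2% ± 2.96 in T+ and 84.7% ± 0.174 in mESC. Tet1 remained the most abundant TET transcript in every library. The summed TET level was 20.1 ± 3.06 TPM in SOX17+, 21.9 ± 1.75 in SOX17+/T+, 21.6 ± 0.377 in T+ and 77.3 ± 4.45 in mESC, so the rise of Tet3 did not offset the fall of Tet1 in transcript units. The summed Dnmt1, Dnmt3a and Dnmt3b level was 11.6 to 12.7 times the TET sum in the SOX17+ libraries, 9.69 to 10.6 times in SOX17+/T+, 9.20 to 9.85 times in T+ and 3.70 to 4.53 times in mESC. The feeder and pluripotency marker sums given above were far higher in mESC than in any sorted population and so move with all of these comparisons; their part was not tested.

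Tdg (ENSMUSG00000034674.18, GRCm38 chr10:82629828-82650799, plus strand) had the smallest ratio of the highest to the lowest group mean of the 9 genes, with means from 42.2 to 47.2 TPM. It was at 42.5, 43.2 and 41.0 TPM in SOX17+, at 48.6, 45.5 and 47.6 in SOX17+/T+, at 42.0, 44.8 and 40.3 in T+, and at 48.2, 48.8 and 44.6 in mESC. SOX17+/T+ lay above both other sorted populations without overlap, and mESC overlapped with SOX17+/T+ and T+. The differences from mESC were -0.16 ± 0.05 in SOX17+ (adjusted p = 0.0102), 0.00 ± 0.05 in SOX17+/T+ (adjusted p = 0.984) and -0.15 ± 0.05 in T+ (adjusted p = 0.0115), beside all-gene medians of -0.18, -0.19 and -0.17, and the scaling decided their direction. Quantile normalization gave 0.10 in SOX17+ (adjusted p = 0.0562), and called Tdg higher in SOX17+/T+ (0.29, adjusted p = 7.0e-05) and in T+ (0.12, adjusted p = 0.0239). Median-of-ratios scaling gave 0.0085 in SOX17+ (adjusted p = 0.871), called SOX17+/T+ higher (0.17, adjusted p = 0.00412) and lost the T+ call (adjusted p = 0.896). Tdg was higher in SOX17+/T+ than in T+ (0.15 ± 0.05, adjusted p = 0.0339) and lower in SOX17+ than in SOX17+/T+ (-0.16 ± 0.05, adjusted p = 0.0251). The call over T+ was lost without SOX17+/T+ replicate 1 or 3 or T+ replicate 1 or 3 (adjusted p = 0.0750 to 0.132), with no filter (adjusted p = 0.0683) and with only the groups compared (adjusted p = 0.0633). The call in SOX17+ against SOX17+/T+ was lost without SOX17+/T+ replicate 1 or 3 or SOX17+ replicate 3 (adjusted p = 0.0628 to 0.0866) and with no filter (adjusted p = 0.0509). The call in T+ against mESC was lost without T+ replicate 3 (adjusted p = 0.0570) and without mESC replicate 2 (adjusted p = 0.0507). The pseudogene Tdg-ps shares 16.9% of the 100-base windows of Tdg and was listed at 5.92 to 6.35 TPM in the group means, so part of the Tdg reads could lie there.

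For 7 of the 9 genes, no difference of SOX17+/T+ from the midpoint of the SOX17+ and T+ means was called. This does not show nearness to the midpoint, since the uncalled Dnmt3a difference was larger than the called Tdg difference. The difference from the midpoint was 0.23 ± 0.21 for Dnmt3a (adjusted p = 0.570), 0.14 ± 0.07 for Dnmt3b (adjusted p = 0.252) and -0.03 ± 0.06 for Dnmt1 (adjusted p = 0.790). Tdg lay above it (0.16 ± 0.04, adjusted p = 0.0387) and Dnmt3l, under 1 TPM throughout these groups, below it (-0.30 ± 0.08, adjusted p = 0.0307). The Tdg call was lost under 11 of the 20 alternatives and the Dnmt3l call under 6. With 2 of 9 genes called, the share stands beside 9.87% of the 16097 tested genes (4.43% higher, 5.44% lower).

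**Figure D3:**
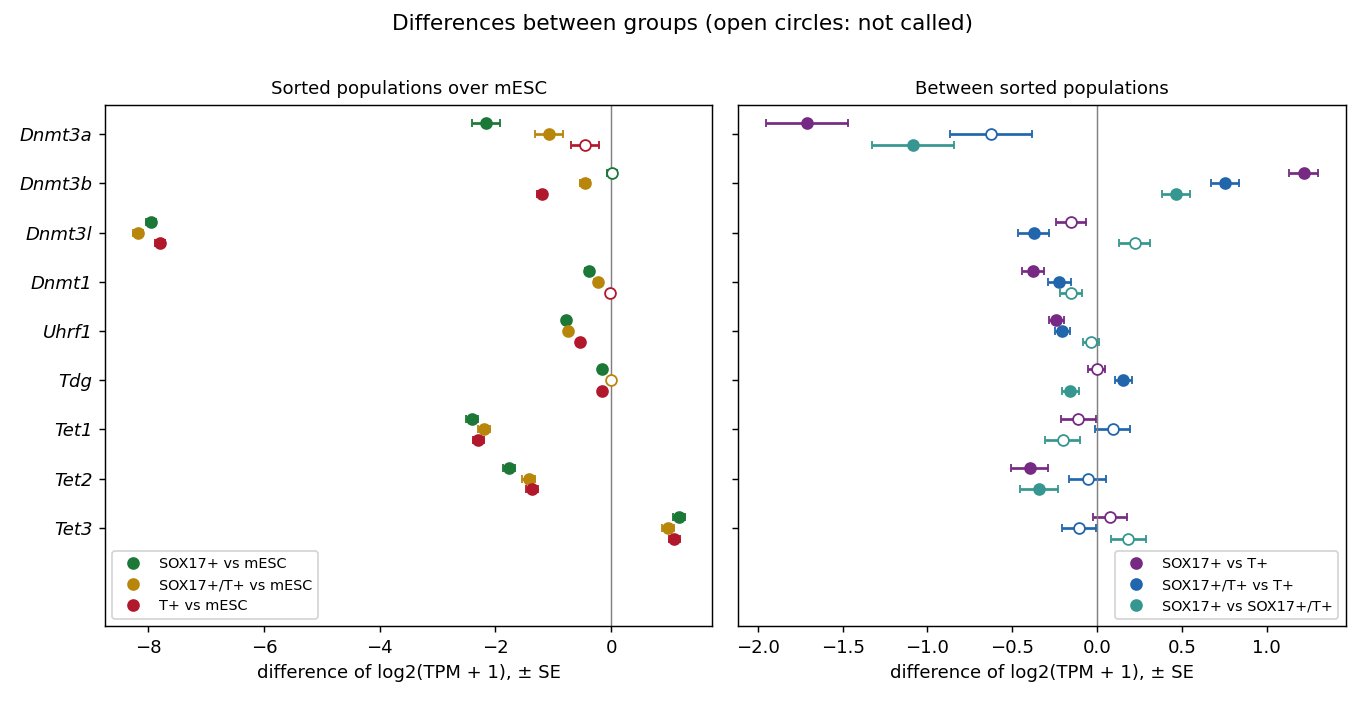
Differences of log2(TPM + 1) ± SE (horizontal axes) for the 9 genes, left for SOX17+, SOX17+/T+ and T+ over mESC and right for SOX17+ vs T+, SOX17+/T+ vs T+ and SOX17+ vs SOX17+/T+; filled circles were called at an adjusted p under 0.05 and open circles were not. Dnmt3a lies left and Dnmt3b right of 0 in all 3 comparisons between sorted populations, and the Dnmt3a bars are the widest.

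Counts of called members have to be read against a table in which calls are common. Against mESC, 8 of the 9 genes were called in SOX17+ (1 higher, 7 lower), beside 85.4% of all tested genes (35.4% higher, 50.0% lower). In SOX17+/T+, 8 were called (1 higher, 7 lower), beside 85.2% (34.9% higher, 50.3% lower). In T+, 7 were called (1 higher, 6 lower), beside 84.0% (34.5% higher, 49.5% lower). These shares are near the background, and Dnmt3l is among them only through its mESC values, so the counts show nothing particular about the members. Between SOX17+ and T+, 5 of 9 were called (1 higher, 4 lower), beside 54.5% of tested genes (25.4% higher, 29.0% lower). Between SOX17+/T+ and T+, 5 of 9 were called (2 higher, 3 lower), beside 28.4% (12.6% higher, 15.8% lower). Between SOX17+ and SOX17+/T+, 4 of 9 were called (1 higher, 3 lower), beside 36.6% (19.8% higher, 16.8% lower). With no filter on low values, 3 members were called in SOX17+/T+ vs T+ and 2 in SOX17+ vs SOX17+/T+, and the same numbers without T+ replicate 1 and without SOX17+/T+ replicate 1.

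Low libraries were partly shared across members. SOX17+ replicate 2 was the lowest of its group for 7 of the 9 genes, beside 49.0% of all tested genes, and SOX17+/T+ replicate 2 was the lowest of its group for 6 of 9, beside 40.5%.

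Genes with the most similar profile to each member were found by the root mean square difference of centred log2(TPM + 1) values over the 12 libraries, among 9194 genes with a mean of at least 10 TPM in some group. Dnmt3b was closest to Snx10 (0.12), Kit (0.13) and Hook2 (0.13). Kit, a receptor tyrosine kinase, averaged 46.2 TPM in SOX17+, 29.3 in SOX17+/T+, 17.4 in T+ and 38.1 in mESC. Nearest to Dnmt3a were Tor3a (0.26), Trp53inp1 (0.28) and the cyclin Ccnd1 (0.29), and Ccnd1 averaged 40.9, 82.4, 114 and 203 TPM in SOX17+, SOX17+/T+, T+ and mESC. This distance includes scatter between libraries of a group, which was wide for Dnmt3a in mESC (48.3 to 92.1 TPM). The larger distances therefore do not show a profile without a match. Genes with profiles like that of Dnmt3l included the pluripotency gene Utf1 (0.17) and S100a4 (0.17), of which S100a4 is in the feeder marker list. Tet1 was closest to the Polycomb cofactor Mtf2 (0.09), Ctnnal1 (0.10) and Zscan10 (0.10), and Tet2 to Sp2 (0.08), Pcnt (0.11) and the repressor Rest (0.11). Tet3 was closest to Mogs (0.08), Magi3 (0.09) and Cnppd1 (0.09), Dnmt1 to Zfp445, Tbc1d31 and Top3a, Uhrf1 to Ppp6r3, Cfap36 and Rfwd3, and Tdg to Ppp5c, Srp54a and Fkbp3. Within the 9 genes the pair with the least difference was Dnmt1 and Tdg (0.18), and the nearest member to Dnmt3l was Tet1 (2.47).

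Genes that work with the 9 members were described from 7 pathway lists and 2 lists of cell cycle genes. Their counts against mESC stand beside 50.0% lower and 35.4% higher among all tested genes in SOX17+, 50.3% and 34.9% in SOX17+/T+, and 49.5% and 34.5% in T+. Counts in SOX17+ vs T+ stand beside 29.0% lower and 25.4% higher. Nothing particular to a list is read from its count. Of 6 partners of maintenance methylation, 5 were lower and 1 higher in each sorted population than in mESC, with list medians of -1.11, -1.13 and -1.12 in SOX17+, SOX17+/T+ and T+, beside all-gene medians of -0.18, -0.19 and -0.17. In T+ the split was 4 lower and 2 higher with quantile normalization. Hells, a remodeler needed for methylation of repeats, averaged 33.0 ± 1.88 TPM in SOX17+, 31.7 ± 1.28 in SOX17+/T+, 33.6 ± 1.55 in T+ and 142 ± 4.44 in mESC (SD, n = 3), and fell by 2.13 ± 0.05 in SOX17+/T+ (adjusted p = 2.8e-13). Uhrf2, a paralog of Uhrf1, rose to 57.8 ± 5.03, 64.2 ± 1.92 and 70.6 ± 2.95 TPM in SOX17+, SOX17+/T+ and T+, against 20.4 ± 0.967 in mESC, by 1.74 ± 0.06 on the log2 scale in T+ (adjusted p = 9.0e-12). Dppa3, a germline factor that keeps Uhrf1 from chromatin, was listed at 0 in all 9 sorted libraries and averaged 6.04 TPM in mESC, through which alone it passed the filter. Between sorted populations 2, 1 and 0 of the 6 were called, all lower, in SOX17+ vs T+, SOX17+/T+ vs T+ and SOX17+ vs SOX17+/T+. Among all tested genes, 29.0%, 15.8% and 16.8% were lower in the same order.

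Partners and regulators of TET enzymes were split, with 4 of 9 higher and 5 lower in each sorted population than in mESC. Nanog, a pluripotency factor that binds TET1, averaged 4.50 ± 1.38 TPM in SOX17+, 12.8 ± 3.67 in SOX17+/T+, 13.3 ± 2.01 in T+ and 440 ± 19.0 in mESC (SD, n = 3). Prdm14, which represses de novo methyltransferases in naive ESCs, averaged 0.037 TPM in SOX17+, 0.860 in SOX17+/T+, 2.69 in T+ and 14.5 in mESC. Cxxc4, a CXXC protein that binds TET2, went the other way, with 1.35 ± 0.178, 2.59 ± 0.398 and 4.86 ± 0.111 TPM in SOX17+, SOX17+/T+ and T+, against 0.292 ± 0.037 in mESC, and rose by 2.18 ± 0.09 in T+ (adjusted p = 4.3e-11). In SOX17+ vs T+, 1 of the 9 was higher and 5 were lower, beside 25.4% and 29.0% of all tested genes.

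Base excision repair, which finishes the work of TDG, was mixed. Of 12 genes, 4 were higher and 6 lower in SOX17+, 4 higher and 6 lower in SOX17+/T+, and 5 higher and 4 lower in T+ than in mESC, a balance that turned to 6 higher and 4 lower, 6 and 2, and 7 and 2 with quantile normalization. Ung, a uracil glycosylase, averaged 49.3 ± 3.11 TPM in SOX17+, 32.3 ± 2.55 in SOX17+/T+, 28.7 ± 1.25 in T+ and 129 ± 3.77 in mESC. The NEIL glycosylases went up: Neil3 averaged 3.69 ± 0.394, 4.63 ± 0.550, 5.80 ± 0.864 and 1.48 ± 0.115 TPM in SOX17+, SOX17+/T+, T+ and mESC, and Neil2 averaged 2.76 ± 0.278, 2.87 ± 0.524, 3.30 ± 0.187 and 1.02 ± 0.210. In SOX17+ vs T+, 7 of the 12 were lower and 1 higher, beside 29.0% and 25.4% of all tested genes.

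Among 10 readers of methylated or unmethylated CpG, 6 were lower and 3 higher in SOX17+ than in mESC, with 5 lower and 4 higher in SOX17+/T+ and 3 lower and 4 higher in T+. The split in SOX17+ became 4 and 4 under both other scalings. Mbd3, a subunit of the NuRD complex, averaged 119 ± 6.88 TPM in SOX17+, 124 ± 3.00 in SOX17+/T+, 120 ± 1.80 in T+ and 209 ± 7.53 in mESC. Zbtb4 was lower in SOX17+ than in T+ by 0.92 ± 0.11 (adjusted p = 7.4e-06), at 1.84 ± 0.346 TPM in SOX17+ and 4.37 ± 0.378 in T+. Zbtb38 averaged 2.57, 3.23, 3.53 and 7.04 TPM in SOX17+, SOX17+/T+, T+ and mESC. In SOX17+ vs T+, 7 of the 10 were lower and 1 higher, beside 29.0% and 25.4% of all tested genes.

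Of 12 genes of the S-adenosylmethionine cycle, 11 were tested; 7 were lower in each sorted population than in mESC, and 4, 3 and 3 were higher in SOX17+, SOX17+/T+ and T+. With quantile normalization T+ had 5 lower and 3 higher, with a list median of -0.06. Mat2a, the enzyme that makes S-adenosylmethionine, averaged 68.7 ± 4.69 TPM in SOX17+, 58.6 ± 1.93 in SOX17+/T+, 63.5 ± 5.68 in T+ and 249 ± 7.74 in mESC, and fell by 2.07 ± 0.06 in SOX17+/T+ (adjusted p = 2.3e-12). Its regulatory subunit Mat2b averaged 32.9, 32.9, 35.6 and 80.3 TPM, and Shmt1, which feeds folate carbon units, 45.2, 39.0, 40.3 and 123 TPM, in SOX17+, SOX17+/T+, T+ and mESC.

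Histone methyltransferases and KRAB cofactors tied to DNA methylation were lower in 7, 6 and 6 of 10 genes, and higher in 2, 3 and 3, in SOX17+, SOX17+/T+ and T+ than in mESC. With quantile normalization the T+ split was 3 lower and 4 higher. Zfp57, which protects methylation at imprinted regions, averaged 6.26 ± 1.09 TPM in SOX17+, 7.65 ± 0.436 in SOX17+/T+, 10.6 ± 0.996 in T+ and 134 ± 8.77 in mESC. Its corepressor Trim28 averaged 425, 445, 481 and 1307 TPM in the same order. Suv39h1, an H3K9 methyltransferase, was the largest rise of the list, at 70.4 ± 2.90 TPM in SOX17+, 62.1 ± 3.55 in SOX17+/T+, 68.8 ± 1.77 in T+ and 17.1 ± 0.436 in mESC. In SOX17+ vs T+, 8 of the 10 were lower and none higher, beside 29.0% and 25.4% of all tested genes.

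Germline genes that promoter methylation is known to silence were lower in the sorted populations than in mESC. Of 14 such genes, 11 were tested and all 11 were lower in each sorted population than in mESC, but 9 of the 11 passed the filter through mESC alone and so had to differ. In T+, 10 of the 11 were lower with either other scaling. Mael averaged 0.297 TPM in SOX17+, 0.111 in SOX17+/T+, 0.321 in T+ and 24.1 in mESC. Ddx4 averaged 0.506, 0.828, 1.31 and 15.3 TPM, and Dazl at most 0.054 TPM in a sorted population and 9.48 in mESC. Sycp3, a meiotic chromosome gene named here after its values were seen, was not low in T+: it averaged 7.85 ± 1.03 TPM in SOX17+, 14.4 ± 2.00 in SOX17+/T+, 33.9 ± 4.30 in T+ and 42.9 ± 2.33 in mESC. Methylation was not measured in these libraries.

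Dnmt1 and Uhrf1 are transcribed mainly in cells that replicate their DNA, so cell cycle genes are given beside them. Of 14 S phase genes, 12, 13 and 12 were lower and 1 higher in SOX17+, SOX17+/T+ and T+ than in mESC, with medians of -0.86, -0.96 and -0.84, beside all-gene medians of -0.18, -0.19 and -0.17. Among all tested genes, 50.0%, 50.3% and 49.5% were lower. Ccne1, a cyclin of S phase entry, averaged 36.8 ± 2.57 TPM in SOX17+, 32.6 ± 0.940 in SOX17+/T+, 33.3 ± 0.868 in T+ and 279 ± 5.44 in mESC. The helicase subunit Mcm5 averaged 118, 102, 119 and 346 TPM, and Rrm2, a subunit of ribonucleotide reductase, 98.0, 109, 136 and 243 TPM, in the same order. Between SOX17+ and T+, where Dnmt1 and Uhrf1 were lower in SOX17+, 4 S phase genes were higher, 3 lower and 7 not called. All 8 mitotic genes were lower in SOX17+ than in T+, beside 29.0% of all tested genes, with a median of -0.74, beside an all-gene median of -0.03. Ccnb1 averaged 90.9 ± 4.00 TPM in SOX17+, 144 ± 8.88 in SOX17+/T+, 174 ± 17.2 in T+ and 323 ± 2.17 in mESC, Aurka 50.9, 75.5, 90.1 and 160, and Cdc20 113, 143, 167 and 305. The part of cell cycle differences in the levels of Dnmt1 and Uhrf1 was not tested.

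**Figure D4:**
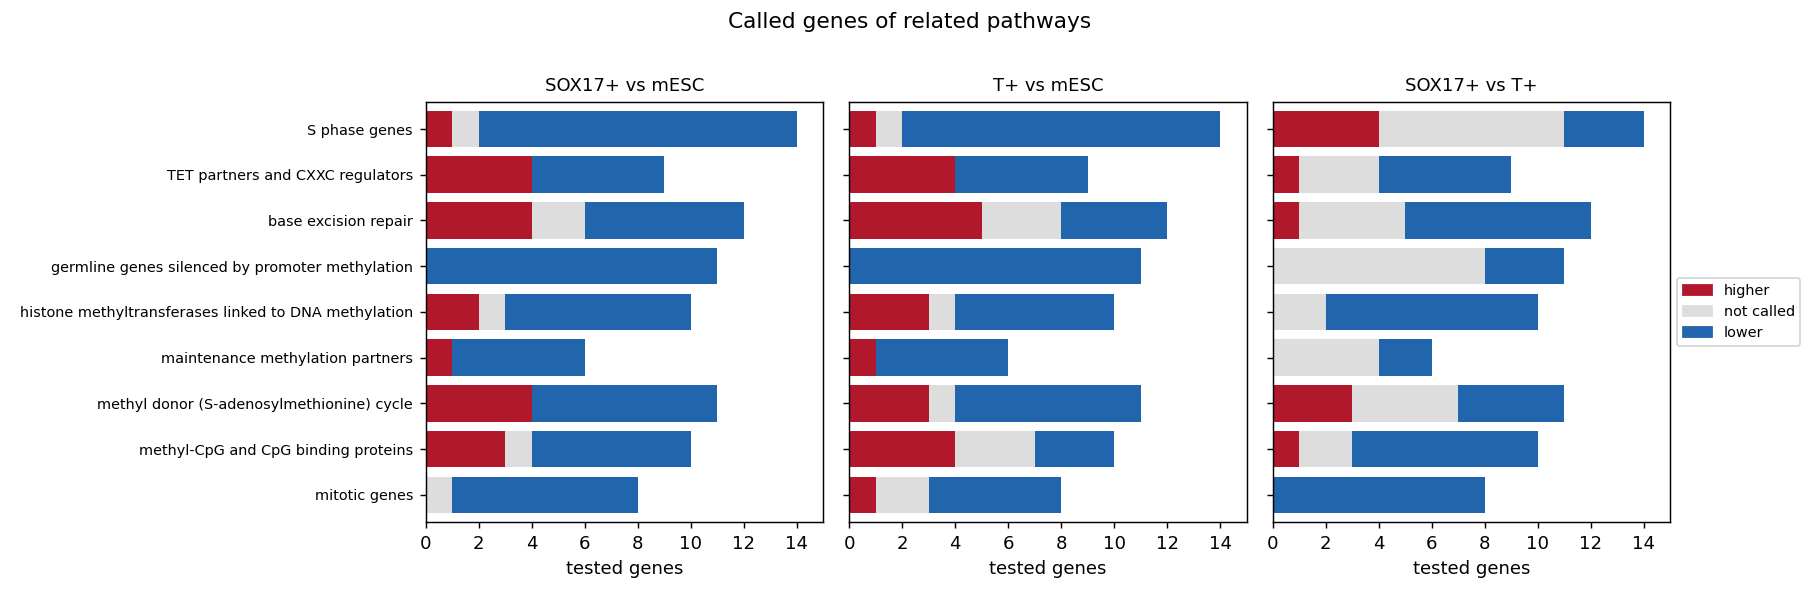
Number of tested genes (horizontal axes) of 9 lists that were higher, not called or lower in SOX17+ vs mESC, T+ vs mESC and SOX17+ vs T+. S phase genes are mostly lower than in mESC in both populations, and all 8 mitotic genes are lower in SOX17+ than in T+.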

How the data were processed

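The authors deposited 1 table of TPM values with gene coordinates; per the submitters' processing notes the tools included StringTie, STAR and cutadapt (versions not given), and the genome builds listed are GRCm38 and mm10. No source used here gives the annotation release, the filters or the use of strand in counting. The table gives no counts, so depth behind a value is unknown and limits its precision. Of 54480 rows, those of 11 genes split over several rows (no member among them) were summed, and 282 empty cells were set to 0, leaving 54446 genes.

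Genes at 1 TPM or more in at least 3 of 12 libraries (16097) were fitted as log2(TPM + 1), with 1 mean per group, with limma 3.58.1 in R 4.3.3 (eBayes with trend and robust, 8 residual degrees of freedom); 2-sided p-values were adjusted by Benjamini-Hochberg over all tested genes, and adjusted p under 0.05 was a call. The 6 pairwise comparisons and the SOX17+/T+ difference from the SOX17+ and T+ midpoint make 7 comparisons. The fit was checked on simulated data in which few genes changed and no shift of all genes was set. That check does not bear on the choice of scaling. The 8 alternatives were pseudocounts of 0.1 and 5, a filter of 5 TPM, no filter, median-of-ratios scaling, quantile normalization, a fit of only the groups compared and a replicate block; each library was also left out in turn.

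Groups share replicate numbers. After removal of group means, same-numbered SOX17+/T+ and T+ libraries correlated across genes at r = 0.204, 0.149 and 0.242, so the numbers were taken as paired for these groups only. Between SOX17+ and SOX17+/T+ the values were 0.046, 0.178 and 0.224. The main fit uses no pairing, and the replicate block was applied to all 12 libraries.

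The members, 9 pathway lists and 9 marker lists were chosen with earlier results of these data known. All members are named; per pathway list, up to 3 called genes with the largest change in any comparison; per marker list, up to 2 genes of highest mean; per member, the 3 genes of most similar profile, of which 1 is not reported here. Motif and window counts used Python 3.11.15, with promoters from RefSeq and windows from GENCODE transcripts.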

Additional observations from a re-analysis of the deposited data

Results flagged for a closer look

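The change from mESC differed between SOX17+ and T+ for 5 of the 9 genes, by the limma contrast of SOX17+ against T+, in which the shared mESC libraries cancel. On the log2 scale, the SOX17+ change minus the T+ change was 1.22 ± 0.08 for Dnmt3b (adjusted p = 1.1e-07) and -1.71 ± 0.24 for Dnmt3a (adjusted p = 0.000176), the 2 genes with the widest gap and opposite signs. It was -0.38 ± 0.07 for Dnmt1 (adjusted p = 0.000322), -0.24 ± 0.05 for Uhrf1 (adjusted p = 0.000671) and -0.40 ± 0.11 for Tet2 (adjusted p = 0.00810). The share of 5 in 9 is near the background, since 54.5% of all tested genes were called in that comparison.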

How the results depend on the processing

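Of 1260 recomputed values of single members, 1180 kept direction and side of the threshold, 41 lost the call, 18 gained it and 21 changed sign; the calls of Uhrf1, Tet1, Tet2 and Tet3 against mESC and of 5 genes in SOX17+ vs T+ held under all 20 alternatives. Scaling turned small differences: with median-of-ratios scaling Tdg was 0.0085 in SOX17+ vs mESC and 0.015 in SOX17+ vs T+, and Dnmt1 0.14 in T+ vs mESC; with quantile normalization Tdg was 0.10 in SOX17+ and 0.12 in T+, and Dnmt1 0.11 in SOX17+/T+ and 0.33 in T+, all vs mESC. In the other sign changes a library was left out and neither value was called: Dnmt3b in SOX17+ vs mESC (-0.036 to 0.11), Tdg in SOX17+/T+ vs mESC (-0.038 to 0.027) and SOX17+ vs T+ (-0.037 to 0.037), Dnmt1 in T+ vs mESC (-0.044 to 0.016), Tet1 in SOX17+ vs T+ (-0.20 to 0.018), Tet2 in SOX17+/T+ vs T+ (-0.16 to 0.023), Uhrf1 in SOX17+ vs SOX17+/T+ (-0.065 to 0.017) and Dnmt1 against the midpoint (-0.077 to 0.016). Called members in SOX17+/T+ vs T+ were 3 with no filter (more genes tested) and 3 to 6 with a library left out. In SOX17+ vs SOX17+/T+ they were 2 and 2 to 6. Against the midpoint they were 1 with a pseudocount of 5, 0 with no filter, 1 with only the groups compared and 0 to 2 with a library left out; of all genes, 1589 were called there, 1056 with no filter and 832 to 1513 with a library left out. The cause was not tested. The replicate block also called Dnmt1 in SOX17+ vs SOX17+/T+ (adjusted p = 0.0391), where the lowest same-number correlation was 0.046 and the numbers are not taken as paired; beyond this and Dnmt3a in SOX17+/T+ vs T+ it changed no call of a member. Depth is unknown, so values under 1 TPM, such as Dnmt3l in sorted cells, carry an unknown counting error.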
